A study of Mus musculus with 11 samples.

Results

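Cell cycle and DNA replication genes were examined as a list of 41 mouse genes, taken by symbol from the 21899 genes of an airway RNA-seq table. The list covers genes that load and fire replication origins, supply deoxynucleotides, drive the cyclin-dependent kinases and run the mitotic spindle. The symbols were chosen by function and not by the values of these libraries, but with earlier results of the same data known. Of the 41 genes, 39 averaged 0.5 FPKM or more (fragments scaled to exon length and to the depth of the library) over all libraries and entered the fit, and Cdc6 and Cenpf lay under this limit.

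The study asked how GGsTop, an inhibitor of γ-glutamyl transferase, acts on the airway in a mouse model of asthma exacerbation. All mice were wild-type, and the methods of the study describe young adult male BALB/c animals. PBS mice (3 libraries) were not sensitized and received PBS alone. OVA/LPS/Vehicle mice (4 libraries) were sensitized to ovalbumin (OVA) with alum, challenged with OVA through the nose, then given lipopolysaccharide (LPS) by the same route and vehicle into the trachea, and OVA/LPS/GGsTop mice (4 libraries) had the same treatment with GGsTop in the vehicle. That PBS mice were given the vehicle is not stated in the sources used here. The sample labels name the trachea as the tissue, whereas the methods describe airways freed from the lung by blunt dissection with the trachea removed. The OVA/LPS/Vehicle libraries carry the numbers 12, 34, 56 and 78, and it is not stated if each is a pool. Nothing in the sources used here says that each library is a separate animal, so p-values measure the spread between libraries, which may be technical.

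A dividing cell first licenses its replication origins by loading the MCM helicase, then copies its DNA in S phase, and afterwards separates the copies on the mitotic spindle. Genes for licensing and DNA synthesis are switched on by E2F factors as the cell leaves G1, and most mitotic genes follow later in G2, when the MuvB complex with B-MYB and FOXM1 acts on them. In the healthy adult airway most epithelial cells are at rest, and basal cells, club cells and lymphocytes are known to divide after injury or allergen. Many members are made mainly in cycling cells, whereas Pcna, Stmn1 and Hmgb2 are also made in others. In bulk RNA fewer cells of a type and less RNA per cell cannot be told apart.

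Promoters of 34 of the 41 members were found in the RefSeq promoter table (build GRCm38.p6), as 35 sequences. In the 250 bases before each start site, 3 sets of letters were searched on both strands. These were the cell cycle genes homology region (CHR, TTTGAA or TTCGAA), the CCAAT box that NF-Y binds (CCAAT), and E2F elements (TTCCCGC, TTTCGCGC or TTTGGCGC). A CHR match was present in 13 of the 35 promoters (37.1%), against 17.1% of all 32851 promoters in the table. A CCAAT match was present in 27 (77.1%), against 33.8% of all promoters. An E2F match was present in 7 (20.0%), against 4.42% of all promoters. By role, E2F letters occurred in 5 of 10 promoters of the licensing group and in none of the 8 promoters of the checkpoint and centromere group, and CHR letters occurred in all 3 promoters of the chromatin and proliferation markers. A match is a description of the letters and not a site of binding. The promoters of Cdk1, Mcm7, Hmgb2 and Rrm2 are shown because these genes stand for mitosis, licensing, chromatin and nucleotide supply in the results that follow, each having the smallest p of its kind among members with a match outside annotated exons. Capitals mark the CHR, CCAAT and E2F letters, in either orientation, and bases within an annotated exon were left out. The Cdk1 stretch lies at chr10:69352939-69353162 (minus strand), that of Mcm7, 1 of its 2 promoters in the table, at chr5:138171267-138171516 (minus strand), that of Hmgb2 at chr8:57511593-57511842 (plus strand) and that of Rrm2 at chr12:24708004-24708240 (plus strand).
Cdk1: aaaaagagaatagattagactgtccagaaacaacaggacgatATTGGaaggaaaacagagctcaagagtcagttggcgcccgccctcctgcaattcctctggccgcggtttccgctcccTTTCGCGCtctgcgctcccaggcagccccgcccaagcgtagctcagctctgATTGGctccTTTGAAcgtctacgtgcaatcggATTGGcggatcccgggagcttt
Mcm7: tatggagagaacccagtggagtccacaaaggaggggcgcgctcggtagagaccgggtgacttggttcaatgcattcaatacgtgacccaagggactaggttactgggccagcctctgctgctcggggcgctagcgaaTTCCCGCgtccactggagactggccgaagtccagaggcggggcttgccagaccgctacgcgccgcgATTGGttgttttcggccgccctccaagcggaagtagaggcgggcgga
Hmgb2: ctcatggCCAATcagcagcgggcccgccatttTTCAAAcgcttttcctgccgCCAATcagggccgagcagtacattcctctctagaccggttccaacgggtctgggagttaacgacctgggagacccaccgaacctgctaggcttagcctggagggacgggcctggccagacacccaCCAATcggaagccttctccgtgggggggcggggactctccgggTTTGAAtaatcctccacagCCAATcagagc
Rrm2: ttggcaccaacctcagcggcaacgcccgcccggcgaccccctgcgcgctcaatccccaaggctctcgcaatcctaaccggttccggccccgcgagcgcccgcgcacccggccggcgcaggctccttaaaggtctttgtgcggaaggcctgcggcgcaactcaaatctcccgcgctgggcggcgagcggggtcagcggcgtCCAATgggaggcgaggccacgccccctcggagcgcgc

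The libraries held 14513136 to 18632382 fragments, as implied by the steps of the deposited FPKM. Over the members this gave between 15 and 1586 fragments for a gene in a library, with a median of 105. These library features touch the members. First, values relative to the gene means had a slope on GC content, per 10 percentage points, of −0.26 to −0.19 log2 units in vehicle libraries, of 0.05 to 0.11 in GGsTop libraries, and of 0.06, 0.05 and 0.53 in PBS 1, 2 and 3. Secondly, OVA/LPS/Vehicle 12 held 60.3 FPKM of 8 immature thymocyte markers in sum, against 7.93 to 16.5 FPKM in every other library. Thirdly, mitochondrial genes took 14.5 to 19.5% of the FPKM in vehicle libraries, 2.08 to 10.1% in PBS and 7.404 to 11.1% in GGsTop. Every library was then scaled to the same total of all other genes, and the mitochondrial genes stayed in the fit. Against PBS, 5 members were called higher (Ccne2, Cdk1, Bub1, Top2a, Hmgb2) and 0 lower, where 13.2% and 21% of all genes were called. Pcna and Hmgb2 stayed lower in GGsTop than in vehicle, where 1.09% of all genes were lower. Calls that were lost without OVA/LPS/Vehicle 12 or PBS 3 are given with and without them.

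Compared with PBS, the OVA/LPS/Vehicle airway had more RNA of 8 of the 39 members tested. This was not far above the share of all genes called higher (15.9%). The 8 were all 3 chromatin and proliferation markers, 2 of 9 cyclins and kinases, 2 of 7 spindle genes and 1 of 7 checkpoint genes, and the 9 licensing genes tested had no call. At an adjusted p under 0.05 in limma, 8 of the 39 members tested rose, namely Ccne2, Cdk1, Bub1, Kif11, Nusap1, Mki67, Top2a and Hmgb2, against 15.9% of all 14004 genes tested that were called higher. One member, the thymidine salvage kinase Tk1, fell, against 22.1% of all genes called lower. The median log2 fold change of the members was 0.20, beside −0.01 over all genes tested, and 32 of 39 members lay above 0. In 9 members all vehicle libraries exceeded all PBS libraries (18.7% of all genes tested did so), and in 0 members all vehicle libraries fell short of all PBS libraries (25.4% of all genes).

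Compared with OVA/LPS/Vehicle, the OVA/LPS/GGsTop airway had lower values of nearly the whole list. The sliding clamp Pcna and the chromatin protein Hmgb2 fell at an adjusted p under 0.05, which is 2 of 39 members against 1.81% of all genes called lower, and 0 members were called higher, against 6.9% of all genes. Of the 39 members 36 had a fold change below 0, with a median of −0.34 beside 0.03 over all genes tested. Without adjustment, 13 members were lower and 1 higher at p under 0.05, where 30.8% of all genes were at such a p in either direction. Limma voom on the recovered fragments called 3 lower and 0 higher, where 1.62% and 6.84% of all genes were called. In 6 members, Pcna, Ccne2, Cdk1, Cenpe, Kif11 and Hmgb2, all GGsTop libraries were lower than all vehicle libraries (12.4% of all genes tested did so), and in 0 members they were all higher (17.3% of all genes).

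Between OVA/LPS/GGsTop and PBS, limma called 0 members higher and 0 lower, where 2.06% and 0.821% of all genes were called. Without adjustment, 2 members were lower and 0 higher at p under 0.05, where 20.5% of all genes were at such a p in either direction. Voom called no member, where 1.78% of all genes were called higher and 0.665% lower. The median log2 fold change was −0.09 and 28 of the 39 members lay below 0, among them all 9 licensing genes tested, with a median of −0.27. The 3 comparisons share libraries, so their values stand side by side and are not independent.

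**Figure D1:**
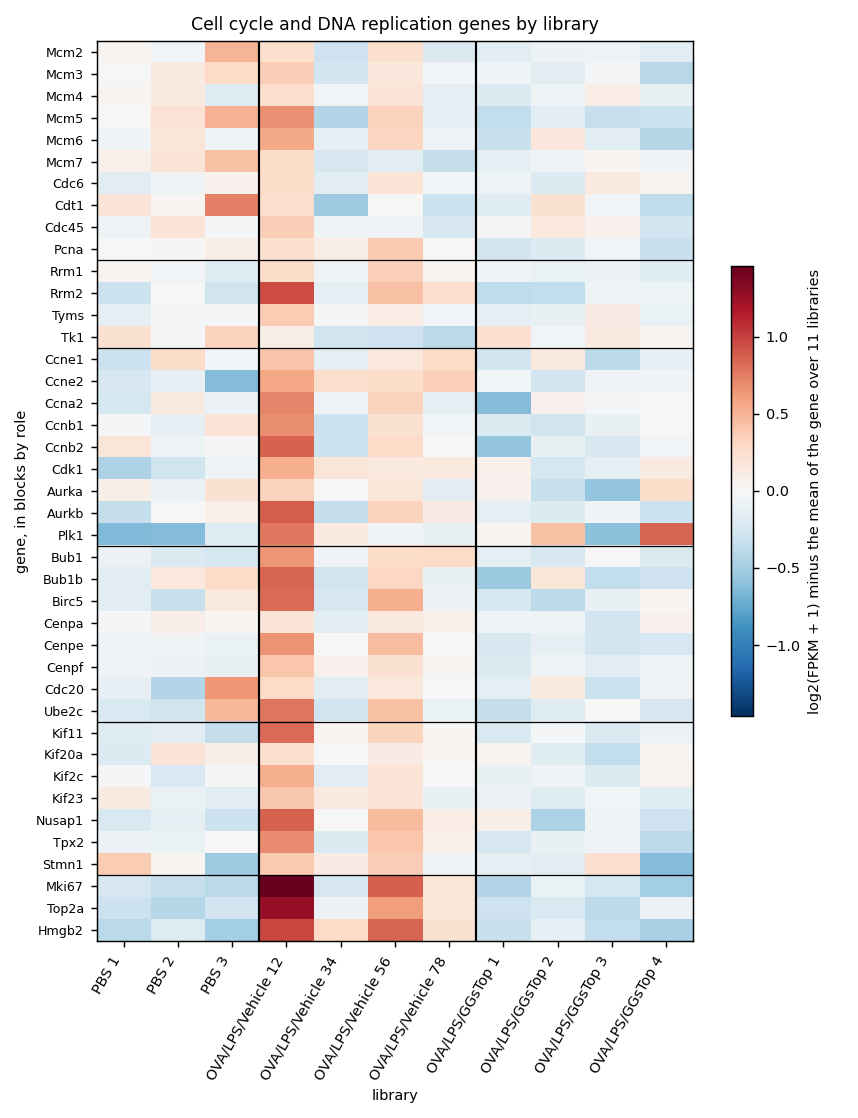
Levels of the 41 members (rows, in blocks by role) in the 11 libraries (columns), as log2(FPKM + 1) minus the mean of each gene over the libraries, red above and blue below that mean. OVA/LPS/Vehicle 12 is red in nearly every row and is the highest library for 33 members, OVA/LPS/Vehicle 56 is red in most rows, and the rows of Mki67, Top2a and Hmgb2 carry the deepest colours.

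The licensing and helicase genes load the replicative helicase and start the fork. Pcna, the clamp that holds DNA polymerase on its template, had 31.7, 31.9 and 33.8 FPKM in PBS 1, 2 and 3. It had 37.5, 33.9, 41.5 and 31.8 FPKM in OVA/LPS/Vehicle 12, 34, 56 and 78, and 26.0, 27.4, 30.6 and 25.0 FPKM in OVA/LPS/GGsTop 1 to 4. The GGsTop libraries were below all others, and the OVA/LPS/Vehicle and PBS libraries overlapped. Pcna fell by 0.39 on the log2 scale from OVA/LPS/Vehicle to OVA/LPS/GGsTop (SE 0.10, adjusted p = 0.0406 in limma), and its means were 36.1 ± 4.25 FPKM (SD, n = 4) and, with GGsTop, 27.2 ± 2.43 FPKM (SD, n = 4). This call was lost in 13 of 25 alternatives, with adjusted p between 0.0125 and 0.237 over all of them, and without OVA/LPS/Vehicle 12 the adjusted p was 0.0764.

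Mcm7, a subunit of the MCM helicase, had 6.34, 6.94 and 8.39 FPKM in the PBS libraries, 7.36, 4.87, 5.24 and 4.46 FPKM in OVA/LPS/Vehicle 12, 34, 56 and 78, and 5.36, 5.62, 6.09 and 5.72 FPKM in OVA/LPS/GGsTop 1 to 4. Without OVA/LPS/Vehicle 12 the vehicle and PBS libraries did not overlap, and Mcm7 was then called lower than in PBS (log2 fold change −0.48, adjusted p = 0.0142), which it was not with all libraries (−0.35, adjusted p = 0.0708). Against OVA/LPS/Vehicle the fold change in GGsTop was 0.06 (SE 0.13, adjusted p = 0.771). The other licensing genes were not called in any comparison, with log2 fold changes between −0.47 (the loading factor Cdt1) and 0.14 (Mcm6) for OVA/LPS/Vehicle against PBS. For GGsTop against vehicle they ranged from −0.41 (Mcm5) to 0.06 (Cdt1).

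The summed level of the 10 licensing genes was 69.5 ± 4.87 FPKM (SD, n = 3) in PBS, 70.2 ± 11.6 FPKM (SD, n = 4) in OVA/LPS/Vehicle and 56.9 ± 4.92 FPKM (SD, n = 4) in OVA/LPS/GGsTop. In the vehicle group OVA/LPS/Vehicle 12 and 56 had 81.8 and 78.5 FPKM, and OVA/LPS/Vehicle 34 and 78 had 60.6 and 59.98 FPKM, below the lowest PBS library (65.1 FPKM). Cdc6, the loader of the MCM ring, was under the filter, with 20 to 61 fragments per library and 0.264 to 0.753 FPKM. An exact two-sided permutation test of Cdc6 gave p = 0.343, 0.486 and 0.857 for the 3 comparisons in the order above, each 0.583 or higher when adjusted over the 6 tests made on the genes under the filter.

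The deoxynucleotide genes differed among themselves. Tk1, which recovers thymidine for DNA synthesis, had 3.22, 2.58 and 3.53 FPKM in PBS, 2.84, 1.96, 1.93 and 1.75 FPKM in OVA/LPS/Vehicle 12, 34, 56 and 78, and 3.25, 2.52, 2.96 and 2.72 FPKM in OVA/LPS/GGsTop. The vehicle libraries other than 12 lay below all PBS and GGsTop libraries. Tk1 fell by 0.40 on the log2 scale from PBS to OVA/LPS/Vehicle (SE 0.14, adjusted p = 0.0382 in limma), which was the opposite sign to the median member, and its fold change in GGsTop against vehicle was 0.32 (SE 0.13, adjusted p = 0.121). Without PBS 3 the fall was 0.33 with an adjusted p of 0.130. The call was lost in 12 of 25 alternatives, with adjusted p between 0.00167 and 0.277 over all of them.

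Rrm2, the inducible subunit of ribonucleotide reductase, had 1.63, 2.26 and 1.67 FPKM in PBS, 5.33, 1.94, 3.37 and 2.85 FPKM in OVA/LPS/Vehicle 12, 34, 56 and 78, and 1.51, 1.54, 2.10 and 2.10 FPKM in OVA/LPS/GGsTop. The vehicle library 34 overlapped both other groups. Vehicle against PBS gave 0.57 (SE 0.22, adjusted p = 0.0570) and GGsTop against vehicle gave −0.59 (SE 0.20, adjusted p = 0.0807), and neither passed the threshold. Rrm1, the large subunit of the same enzyme, was present at 3.20, 2.95 and 2.61 FPKM in PBS, at 3.88, 2.86, 4.16 and 3.20 FPKM in OVA/LPS/Vehicle and at 2.92, 2.80, 2.84 and 2.59 FPKM in OVA/LPS/GGsTop, and GGsTop against vehicle gave −0.25 (SE 0.11, adjusted p = 0.148). Tyms, thymidylate synthase, differed by 0.16 and −0.16 on the log2 scale in these comparisons and was not called.

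All 9 cyclins and mitotic kinases had a fold change above 0 for OVA/LPS/Vehicle against PBS and below 0 for GGsTop against vehicle, with medians of 0.27 and −0.34. Cyclin E2 (Ccne2), which drives entry into S phase, had 0.950, 1.11 and 0.476 FPKM in PBS, 2.40, 1.74, 1.76 and 1.92 FPKM in OVA/LPS/Vehicle 12, 34, 56 and 78, and 1.24, 0.887, 1.197 and 1.22 FPKM in OVA/LPS/GGsTop. The vehicle libraries lay above all others without overlap. Ccne2 rose by 0.69 on the log2 scale over PBS (SE 0.14, adjusted p = 0.00635 in limma), and GGsTop against vehicle gave −0.47 (SE 0.13, adjusted p = 0.0501), just outside the threshold. Ccne2 is the member with the lowest GC content (36.3%), and after GC correction its fold changes were 0.07 and −0.05.

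Cdk1, the kinase that starts mitosis, had 0.471, 0.641 and 0.903 FPKM in PBS, 1.90, 1.27, 1.21 and 1.21 FPKM in OVA/LPS/Vehicle and 1.12, 0.684, 0.835 and 1.19 FPKM in OVA/LPS/GGsTop. All vehicle libraries lay above all PBS and all GGsTop libraries, the latter by a narrow margin. Cdk1 rose by 0.52 over PBS (SE 0.15, adjusted p = 0.0198), and without OVA/LPS/Vehicle 12 by 0.42 (adjusted p = 0.0426). After GC correction the fold change was 0.45 with an adjusted p of 0.0535. For GGsTop against vehicle it was −0.29 (SE 0.14, adjusted p = 0.174).

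Plk1, a kinase of spindle assembly and mitotic exit, had 1.39, 1.41 and 2.27 FPKM in PBS, 5.37, 3.14, 2.60 and 2.45 FPKM in OVA/LPS/Vehicle, and 2.84, 4.01, 1.47 and 5.72 FPKM in OVA/LPS/GGsTop 1 to 4. Every vehicle library was above every PBS library, and the GGsTop libraries spanned nearly the whole range, with OVA/LPS/GGsTop 4 the highest of all 11 libraries. The fold changes were 0.68 (SE 0.31, adjusted p = 0.102) for vehicle against PBS and −0.01 (SE 0.29, adjusted p = 0.989) for GGsTop against vehicle. After GC correction Plk1, was the only member called in any comparison, at 0.99 above PBS (adjusted p = 0.0376).

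The summed markers of deuterosomal cells, the resting precursors of multiciliated cells that borrow parts of the cell cycle machinery to multiply centrioles, were also highest in OVA/LPS/GGsTop 4 (24.2 FPKM). They were 3.05 to 5.46 FPKM in PBS, 13.5 to 17.96 FPKM in OVA/LPS/Vehicle and 9.63 to 24.2 FPKM in OVA/LPS/GGsTop. Within OVA/LPS/GGsTop they were lowest in library 3, where Plk1 was lowest too. In OVA/LPS/Vehicle 12, 34, 56 and 78 they were 13.8, 16.7, 13.5 and 17.96 FPKM. There the order differed, with the most of these markers and the least Plk1 in vehicle 78, and the most Plk1 in vehicle 12. PBS 3 had the least of these markers and the most Plk1 of the PBS libraries. All 6 of these markers were called higher in OVA/LPS/Vehicle than in PBS. Their part in the Plk1 values was not tested.

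The cyclin and kinase members not named so far were not called. Cyclin A2, B1 and B2 (Ccna2, Ccnb1, Ccnb2) and the Aurora kinases (Aurka, Aurkb) had log2 fold changes between 0.02 and 0.34 for vehicle against PBS and between −0.44 and −0.23 for GGsTop against vehicle, and cyclin E1 (Ccne1) had 0.20 and −0.34.

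**Figure D2:**
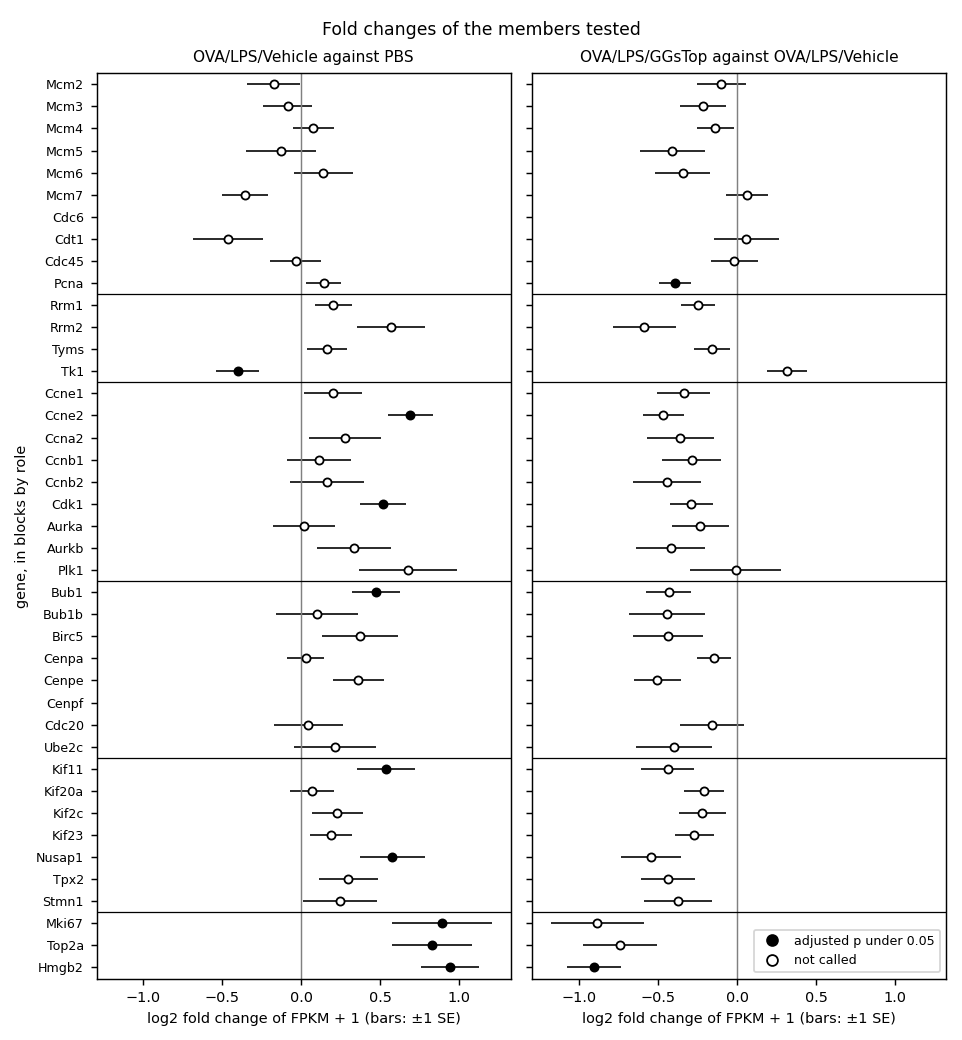
Log2 fold change of FPKM + 1 with its standard error for each member tested, in OVA/LPS/Vehicle against PBS (left) and GGsTop against vehicle (right), with filled points for an adjusted p under 0.05. On the left 9 points are filled and the licensing block lies around 0, and on the right 36 of 39 points lie below 0 while only Pcna and Hmgb2 are filled.

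The checkpoint, centromere and anaphase genes watch over chromosome attachment and trigger its release. All 7 tested had a fold change above 0 in vehicle against PBS (median 0.21) and below 0 in GGsTop against vehicle (median −0.43). Bub1, a checkpoint kinase at the kinetochore, had 0.610, 0.474 and 0.431 FPKM in PBS, 1.67, 0.654, 1.07 and 1.09 FPKM in OVA/LPS/Vehicle, and 0.549, 0.459, 0.713 and 0.481 FPKM in OVA/LPS/GGsTop. The vehicle libraries cleared all PBS libraries, and vehicle 34 lay within the GGsTop range. Bub1 rose by 0.48 over PBS (SE 0.15, adjusted p = 0.0309), which was 0.36 without OVA/LPS/Vehicle 12 (adjusted p = 0.0607), 0.44 without PBS 3 (adjusted p = 0.0957) and 0.03 after GC correction. It gave −0.43 in GGsTop against vehicle (SE 0.14, adjusted p = 0.0720).

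Cenpe, the kinetochore motor that brings chromosomes to the metaphase plate, had 0.485, 0.509 and 0.467 FPKM in PBS, 1.48, 0.580, 1.1498 and 0.576 FPKM in OVA/LPS/Vehicle, and 0.331, 0.424, 0.294 and 0.329 FPKM in OVA/LPS/GGsTop. The 3 groups did not overlap, with GGsTop lowest. The fold change of GGsTop against vehicle was −0.51 (SE 0.15, adjusted p = 0.0546), and it passed the threshold in 6 of 24 alternatives. Cenpf, a large kinetochore protein under the filter, had 0.313 to 0.374 FPKM in PBS, 0.465 to 0.878 FPKM in OVA/LPS/Vehicle and 0.241 to 0.366 FPKM in OVA/LPS/GGsTop, so that the vehicle libraries lay above both other groups, which overlapped. Its exact two-sided permutation p was 0.0286 for GGsTop against vehicle and 0.0571 for vehicle against PBS, in both cases the smallest that libraries of this number allow, and 0.171 after adjustment over 6 tests.

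Cdc20, the activator of the anaphase-promoting complex, had 4.19, 3.21 and 7.76 FPKM in PBS, 5.94, 4.06, 5.31 and 4.65 FPKM in OVA/LPS/Vehicle and 4.16, 5.24, 3.56 and 4.49 FPKM in OVA/LPS/GGsTop. The groups overlapped, and PBS 3 was the highest library. GGsTop against vehicle gave −0.16 (SE 0.20, adjusted p = 0.619). The checkpoint kinase Bub1b, survivin (Birc5), the centromeric histone Cenpa and the ubiquitin-conjugating enzyme Ube2c were not called in either comparison, with fold changes between 0.03 and 0.37 and between −0.45 and −0.15.

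The spindle genes had the same signs in all 7 members. Kif11, the motor that pushes the spindle poles apart, had 0.463, 0.484 and 0.295 FPKM in PBS, 1.95, 0.695, 1.08 and 0.690 FPKM in OVA/LPS/Vehicle, and 0.418, 0.637, 0.425 and 0.561 FPKM in OVA/LPS/GGsTop. The vehicle libraries were above all others. Kif11 rose by 0.54 over PBS (SE 0.18, adjusted p = 0.0384), which was 0.36 without OVA/LPS/Vehicle 12 (adjusted p = 0.0567) and 0.47 without PBS 3 (adjusted p = 0.129). This call was lost in 14 of 24 alternatives, with fold changes from 0.03 to 1.31 and adjusted p between 0.0259 and 0.916 over all of them. GGsTop against vehicle was −0.44 (SE 0.17, adjusted p = 0.109).

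Nusap1, which bundles spindle microtubules at chromosomes, had 1.03, 1.18 and 0.899 FPKM in PBS, 3.32, 1.36, 2.26 and 1.55 FPKM in OVA/LPS/Vehicle, and 1.51, 0.713, 1.26 and 0.916 FPKM in OVA/LPS/GGsTop. The vehicle libraries lay above PBS, and GGsTop 1 exceeded vehicle 34. Nusap1 rose by 0.58 over PBS (SE 0.20, adjusted p = 0.0443), a call lost in 14 of 25 alternatives, with 0.41 without OVA/LPS/Vehicle 12 (adjusted p = 0.0893), 0.53 without PBS 3 (adjusted p = 0.136) and 0.17 after GC correction. It had a fold change of −0.55 for GGsTop against vehicle (SE 0.19, adjusted p = 0.0847). Stathmin (Stmn1), which destabilizes microtubules and is also made by neurons and lymphocytes, was the most abundant member by mean FPKM, at 43.2, 33.8 and 22.5 FPKM in PBS, 43.5, 36.0, 42.6 and 31.8 FPKM in OVA/LPS/Vehicle and 30.0, 29.5, 39.4 and 20.9 FPKM in OVA/LPS/GGsTop. Its groups overlapped throughout (GGsTop against vehicle −0.37, SE 0.22, adjusted p = 0.256). The kinesins Kif20a, Kif2c and Kif23 and the spindle assembly factor Tpx2 were not called, with fold changes of 0.07 to 0.30 and −0.44 to −0.21.

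The chromatin and proliferation markers had the largest fold changes of the list in both comparisons on the scale of log2(FPKM + 1). In ratios of mean FPKM, Kif11 (2.66 in vehicle over PBS) and Cenpe (0.364 in GGsTop over vehicle) were farther from 1 than these markers. Hmgb2, a DNA-bending chromatin protein abundant in dividing cells and in thymus, had 10.1, 11.8 and 9.35 FPKM in PBS, 27.6, 16.9, 25.3 and 16.0 FPKM in OVA/LPS/Vehicle 12, 34, 56 and 78, and 10.7, 12.4, 10.3 and 9.50 FPKM in OVA/LPS/GGsTop. The vehicle libraries lay above all others by a wide margin, and the PBS and GGsTop ranges overlapped. Hmgb2 rose by 0.94 over PBS (SE 0.18, adjusted p = 0.00528) and fell by 0.90 in GGsTop against vehicle (SE 0.17, adjusted p = 0.0198). Without OVA/LPS/Vehicle 12 the fold changes were 0.81 and −0.77, with adjusted p of 0.0104 and 0.0361. After GC correction they were 0.40 and −0.53, with adjusted p of 0.155 and 0.125.

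Top2a, the topoisomerase that untangles sister chromatids, had 1.49, 1.32 and 1.54 FPKM in PBS, 6.47, 1.90, 3.72 and 2.496 FPKM in OVA/LPS/Vehicle, and 1.503, 1.65, 1.37 and 1.91 FPKM in OVA/LPS/GGsTop. The vehicle libraries lay above PBS, and GGsTop 4 slightly exceeded vehicle 34. Top2a rose by 0.83 over PBS (SE 0.25, adjusted p = 0.0261), which was 0.57 without OVA/LPS/Vehicle 12 (adjusted p = 0.0290), 0.86 without PBS 3 (adjusted p = 0.0694) and 0.50 after GC correction (adjusted p = 0.204). GGsTop against vehicle gave −0.74 (SE 0.24, adjusted p = 0.0668). Mki67, which encodes the proliferation antigen Ki-67, was singled out after its values were seen. It had 2.29, 2.09 and 1.98 FPKM in PBS, 9.76, 2.29, 6.16 and 3.40 FPKM in OVA/LPS/Vehicle 12, 34, 56 and 78, and 1.90, 2.64, 2.27 and 1.78 FPKM in OVA/LPS/GGsTop. Vehicle 34 stood at the PBS level, and vehicle 12 was 4.26 times as high as vehicle 34. Mki67 rose by 0.89 over PBS (SE 0.32, adjusted p = 0.0447), a call that was lost in 17 of 25 alternatives, among them those without OVA/LPS/Vehicle 12 (0.59, adjusted p = 0.0768) and without PBS 3 (0.86, adjusted p = 0.130), and its fold change in GGsTop against vehicle was −0.88 (SE 0.29, adjusted p = 0.0749).

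Within the vehicle group the libraries differed widely. The median deviation of the members from their gene means was 0.55, −0.13, 0.27 and −0.01 in vehicle 12, 34, 56 and 78, against −0.09 to −0.02 in PBS and −0.16 to −0.08 in GGsTop. OVA/LPS/Vehicle 12 was the highest of the 4 for 38 of 41 members, and OVA/LPS/Vehicle 12 and 56 were both above 34 and 78 for 35 members. The lowest of the 4 was vehicle 34 for 25 members and vehicle 78 for 15. Without the 3 most abundant genes, Pcna, Stmn1 and Hmgb2, the other 38 members summed to 135 and 100.2 FPKM in vehicle 12 and 56, to 67.8 and 75.8 FPKM in vehicle 34 and 78, to 73.2, 76.3 and 88.0 FPKM in PBS and to 66.1 to 73.1 FPKM in OVA/LPS/GGsTop. In this sum vehicle 34 and 78 lay at or near the PBS range, while vehicle 12 and 56 lay above every PBS and GGsTop library.

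Some markers of lymphoid cells were highest in vehicle 12 or 56, but not every list was raised in both. The thymocyte markers summed to 14.2 FPKM in vehicle 56, within the PBS range of 7.93 to 16.5 FPKM. Rag1 and Dntt, which cut and extend antigen receptor genes in immature lymphocytes, were at 8.53 and 13.8 FPKM in OVA/LPS/Vehicle 12 and at no more than 0.0976 and 0.301 FPKM elsewhere. Of the 8 thymocyte markers 7 were highest in vehicle 12. Ptcra, the exception, was at 0.151 FPKM (3 fragments) there and 0.161 FPKM in OVA/LPS/GGsTop 2. Cd1d1 was at 13.4 FPKM in vehicle 12 and up to 10.1 FPKM in PBS. The T cell markers (8 genes) summed to 67.5 FPKM in vehicle 12, to 21.6 to 35.4 FPKM in the other vehicle libraries, to 25.4 to 44.3 FPKM in PBS and to 17.5 to 28.3 FPKM in OVA/LPS/GGsTop, and 7 of the 8 were highest in vehicle 12. The 7 germinal centre B cell markers were mixed. Rgs13, a regulator of G protein signalling, was at 2.26 and 4.25 FPKM in vehicle 12 and 56, against at most 0.583 FPKM in every other library, whereas S1pr2, a sphingosine-1-phosphate receptor, was at 2.52 to 3.33 FPKM in the vehicle libraries and at 4.29 to 7.82 FPKM in PBS and was called lower. The whole list summed to 30.7 and 33.5 FPKM in vehicle 12 and 56 and to 15.3 to 28.0 FPKM elsewhere. No tested gene of the thymocyte, T cell or germinal centre lists was called between the vehicle and GGsTop groups. The part of these cells in the member values was not tested.

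Pro-B and pre-B cell markers (7 genes) summed to 105 and 110 FPKM in vehicle 12 and 56, to 60.3 and 75.8 FPKM in vehicle 34 and 78, to 89.4 to 105 FPKM in PBS and to 53.2 to 107 FPKM in GGsTop. These sums were mostly Cd79a, Vpreb3 and Cd79b, which averaged 29.9, 29.4 and 23.3 FPKM over all libraries. Vpreb1 and Igll1 had at most 0.628 and 0.194 FPKM, with at most 12 and 7 fragments in any library. Of the 8 myeloid progenitor markers, Elane, Mpo, Ctsg and Ms4a3 had at most 12 fragments in any library, and the list summed to 0.860 to 2.99 FPKM in PBS, to 3.84 to 4.71 FPKM in OVA/LPS/Vehicle, with both markers tested (Camp and Ngp) called higher than in PBS, and to 3.17 to 6.83 FPKM in OVA/LPS/GGsTop. Airway basal cell markers (6 genes) ranged from 27.5 to 52.4 FPKM in OVA/LPS/Vehicle, from 3.77 to 37.7 FPKM in PBS and from 1.40 to 84.1 FPKM in OVA/LPS/GGsTop. All 6 had a fold change above 0 in vehicle against PBS (median 0.88) and below 0 in GGsTop against vehicle (median −0.87), with 0 called in limma and, at an unadjusted p under 0.05, 1 against PBS (Trp63) and 1 against vehicle (Dapl1). The part of these cells in the member values was not tested. Erythroid markers were higher in PBS (3005 to 7729 FPKM) than in OVA/LPS/Vehicle (1998 to 2823 FPKM), with 3 of 8 called lower. Club and ciliated cell markers, led by Scgb1a1, summed to 28364 FPKM or more in every library, so the defining markers of airway epithelium were present, and alveolar type 2 markers, which belong to the lung parenchyma, summed to 4560 FPKM or more. Plasma cell markers (6 genes) summed to 250.9 to 809 FPKM in OVA/LPS/Vehicle, 139 to 149 FPKM in PBS and 333 to 712 FPKM in OVA/LPS/GGsTop. Against PBS, 2 were called higher and 1 lower in vehicle. Jchain alone was at 137 to 665 FPKM in vehicle and 7.16 to 33.2 FPKM in PBS. Sdc1 lay lower in vehicle (36.8 to 48.0 FPKM) than in PBS (48.9 to 68.5 FPKM). Macrophage (135 to 277 FPKM) and smooth muscle (469 to 1148 FPKM) markers were present in every library.

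Without OVA/LPS/Vehicle 12, limma called 4 members higher (Ccne2, Cdk1, Top2a, Hmgb2) and 2 lower (Mcm7, Tk1) than in PBS, where 12.7% and 20.4% of all genes were called, and 1 lower (Hmgb2) in GGsTop than in vehicle, where 0.814% were. The median fold changes were then 0.10 and −0.21, and 34 of 39 members still lay below 0 for GGsTop against vehicle. With PBS 3 also left out, 3 were higher (Ccne2, Cdk1, Hmgb2) and 2 lower in vehicle, against 7.99% and 13.8% of all genes. In GGsTop against vehicle, 3 were then lower (Pcna, Ccne2, Hmgb2) and 1 higher (Tk1), against 9.23% and 14.9% of all genes. By role, the median of the checkpoint group against PBS was 0.21 with all libraries and 0.02 without OVA/LPS/Vehicle 12, and that of the chromatin markers was 0.89 and 0.59.

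**Figure D3:**
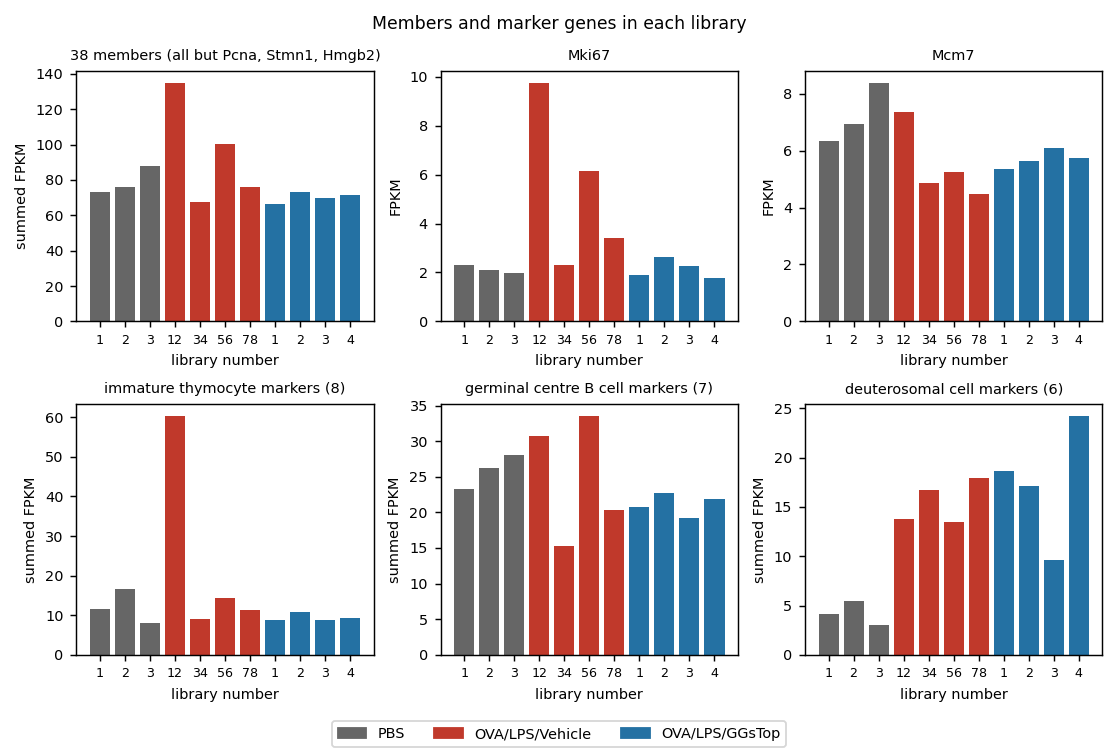
FPKM in each of the 11 libraries, summed over 38 members, for Mki67 and Mcm7 alone, and summed over the immature thymocyte, germinal centre B cell and deuterosomal cell markers, with bars coloured by group. OVA/LPS/Vehicle 12 stands out in the thymocyte panel at 60.3 FPKM, vehicle 12 and 56 are the highest bars of the germinal centre panel and of the 38 members, and the deuterosomal panel separates PBS from both OVA/LPS groups.

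GC content was another property that differed with the calls. The 8 members called higher in vehicle than in PBS had a median GC content of 42.0% (36.3 to 47.8%), and the 30 not called had 49.3%. After each library was corrected for its trend with GC content, 1 member (Plk1) was called higher and 0 lower in vehicle against PBS. The shares of all genes were 8.11% and 13.3%. In GGsTop against vehicle 0 members were called in either direction, where 1.8% of all genes were higher and 0.436% lower. The direction of the list was kept by the correction, with 29 of 39 members above 0 in vehicle against PBS (median 0.11, beside −0.04 over all genes) and 38 of 39 below 0 in GGsTop against vehicle (median −0.26, beside 0.04). With PBS 3 and OVA/LPS/Vehicle 12 left out as well, 22 of 39 lay above 0 (median 0.01) and 29 of 39 below 0 (median −0.15). The GC trend differs between the treatment groups, so that its part in the fold changes and that of the treatment cannot be told apart.

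**Figure D4:**
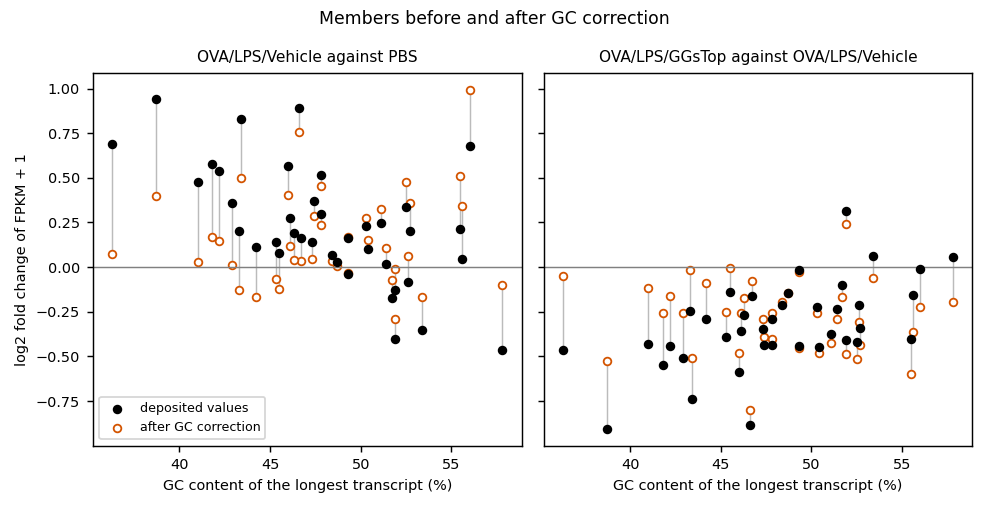
Log2 fold change of each member tested against the GC content of its longest transcript, from the deposited values (black) and after GC correction (open, orange, joined by a line), for OVA/LPS/Vehicle against PBS (left) and GGsTop against vehicle (right). Members with low GC content move most towards 0, as for Ccne2 at 36.3% GC and Hmgb2 at 38.7% GC, and on the right 38 open points remain below 0.

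Outside the 41 members, the 4 other lists of cell cycle genes gave these values. Of the G1 control genes (18 of 20 tested), 3 rose and 3 fell in vehicle against PBS and 0 were called in GGsTop against vehicle. E2f5, which represses its targets in resting cells, averaged 9.01 ± 1.63 FPKM (SD, n = 3) in PBS and 13.7 ± 1.71 FPKM (SD, n = 4) in vehicle and rose by 0.56 on the log2 scale (SE 0.13, adjusted p = 0.00944), and E2f4, another repressor, fell by 0.60 (SE 0.15, adjusted p = 0.0135). Rb1, which holds E2F factors in check, and E2f4 had the smallest p in GGsTop against vehicle, with fold changes of −0.56 (SE 0.19, adjusted p = 0.0745) and 0.36 (SE 0.14, adjusted p = 0.119).

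Of the 18 brakes of the cell cycle, all tested, 6 rose and 2 fell in vehicle against PBS, and 1 rose and 2 fell in GGsTop against vehicle. Wee1, the kinase that holds Cdk1 inactive, had 2.78, 2.25 and 1.99 FPKM in PBS, 4.17, 3.87, 4.33 and 5.64 FPKM in OVA/LPS/Vehicle and 8.29, 7.74, 6.40 and 8.66 FPKM in OVA/LPS/GGsTop. The 3 groups did not overlap, and Wee1 rose with GGsTop by 0.68 over vehicle (SE 0.13, adjusted p = 0.0198) after 0.72 over PBS (SE 0.14, adjusted p = 0.00511). After GC correction both calls held (0.65, adjusted p = 0.0336, and 0.74, adjusted p = 0.00883). Btg1, an antiproliferative gene of resting lymphocytes, rose by 0.73 over PBS (SE 0.12, adjusted p = 0.00365) and fell by 0.56 in GGsTop (SE 0.11, adjusted p = 0.0204), and after GC correction this fall was 0.31 with an adjusted p of 0.0576. The CDK4/6 inhibitor Cdkn2b fell from 26.8 ± 6.46 FPKM (SD, n = 3) in PBS to 11.2 ± 1.70 FPKM (SD, n = 4) in vehicle, by 1.17 on the log2 scale (SE 0.20, adjusted p = 0.00391).

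Of the other replication genes (35 of 40 tested), 6 rose and 3 fell against PBS, and 1 fell and 0 rose in GGsTop. The activator of the Cdc7 kinase Dbf4 rose by 0.54 (SE 0.12, adjusted p = 0.00821) and the polymerase delta subunit Pold2 fell by 0.87 (SE 0.15, adjusted p = 0.00409). The single-strand binding protein Rpa3 fell by 0.53 in GGsTop against vehicle (SE 0.13, adjusted p = 0.0316), and the polymerase alpha subunit Pola1 had −0.32 (SE 0.11, adjusted p = 0.0827). After GC correction 0 of these genes were called in GGsTop against vehicle, and the fold changes of Rpa3 and Dbf4 against PBS were −0.10 and 0.01.

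Of the other mitosis genes (32 of 49 tested), 8 rose and 1 fell against PBS, and 4 fell and 1 rose in GGsTop. Ckap2l, a spindle protein, had 0.868, 1.152 and 0.873 FPKM in PBS, 2.90, 2.42, 2.68 and 2.77 FPKM in OVA/LPS/Vehicle and 1.69, 1.65, 1.25 and 2.30 FPKM in OVA/LPS/GGsTop. It rose by 0.91 (SE 0.13, adjusted p = 0.00337), and the condensin subunit Smc2 rose by 0.91 (SE 0.17, adjusted p = 0.00497). After GC correction both genes were still called (0.74, adjusted p = 0.00852, and 0.40, adjusted p = 0.0293). In GGsTop against vehicle Ckap2, a spindle pole protein, fell by 0.58 (SE 0.14, adjusted p = 0.0310), and the phosphatase Cdc25b, an activator of Cdk1, rose by 0.53 (SE 0.13, adjusted p = 0.0344). After GC correction 0 genes of this list were called in GGsTop against vehicle.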

How the data were processed

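Poly(A) RNA of 11 airway libraries was sequenced, the mRNA having been bound to poly-T beads per the labels. Per the submitters' processing notes, cutadapt 1.15, HISAT2 2.0.5, HTSeq 0.9.1 and the build mm39 were used. The authors deposited FPKM, that is fragments scaled to exon length and library depth, and no further scaling is stated. With GENCODE M21 exon lengths (GRCm38), 97.7 to 97.8% of the values above 0 were whole fragments within 0.02, and depth was taken from these steps. Symbols were matched for 21795 of 21899 genes.

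The study used DESeq on counts, which FPKM do not allow. The 14004 genes that averaged 0.5 FPKM or more were taken as log2(FPKM + 1) and fitted with limma 3.58.1 (R 4.3.3, mean-variance trend), all groups in 1 fit, with two-sided p-values adjusted by Benjamini-Hochberg over all genes tested and called under 0.05. Fold changes on this scale understate those of genes near 1 FPKM. Cdc6 and Cenpf were compared by exact permutation tests. GC correction subtracted from each library a spline on GC content (5 degrees of freedom). The fit was tested on simulated data. Tables were handled in Python 3.11.15.

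The members and gene lists were chosen with earlier results of these data known. Library values were given, in each role group, for the 2 members with the smallest p over the 3 comparisons and the most abundant member, and for Mki67. In the other lists the 2 genes with the smallest p in OVA/LPS/Vehicle against PBS and in OVA/LPS/GGsTop against OVA/LPS/Vehicle were named. PBS and OVA/LPS/GGsTop share the numbers 1 to 3. Deviations of same-numbered libraries correlated at 0.158, 0.624 and 0.401 across genes. Differently numbered libraries gave values from −0.643 (PBS 2 with OVA/LPS/GGsTop 3) to 0.419 (PBS 1 with OVA/LPS/GGsTop 3). These values do not settle if the numbers mark pairs. The numbers were treated as pairing only in the blocked fit, which is given with the alternatives. Leaving out PBS 3 and OVA/LPS/Vehicle 12 together, GC correction with these or PBS 3 alone left out, and limma voom on recovered fragments were added after seeing the data. Among 13 lists of marker genes, each is given as summed FPKM. The values of 1 marker gene are not reported here.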

Additional observations from a re-analysis of the deposited data

Results flagged for a closer look

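In the groups of 4 libraries, 4 values stood apart from the rest of their group by Dixon's test, of 108 groups examined, where chance alone flags about 1 in 20. Cdk1 in OVA/LPS/Vehicle 12 was at 1.90 FPKM, with the other vehicle libraries at 1.21 to 1.27 FPKM. Tyms in OVA/LPS/GGsTop 3 was at 1.38 FPKM, above the other GGsTop libraries. Ccne2 in OVA/LPS/GGsTop 2 was at 0.887 FPKM, below the others of its group. The summed immature thymocyte markers in OVA/LPS/Vehicle 12 were at 60.3 FPKM.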

How the results depend on the processing

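Under 25 alternatives the list kept its sides of 0, the median staying above 0 for vehicle against PBS and below 0 for GGsTop against vehicle, but the counts of called members moved, and where no reason is named the cause was not tested. Against PBS (8 higher, 1 lower), scaling to the same FPKM total, which shifts the median of all genes by −0.15, gave 4 and 2. Of all genes, 8.79% were then called higher and 32.7% lower. The same total without mitochondrial genes gave 5 and 0 (13.2% and 21% of all genes). A fit of only the groups compared gave 3 and 0 (12.6% and 18.6%). GC correction gave 1 and 0 (8.11% and 13.3%), and GC correction without PBS 3 gave 0 and 0 (1.73% and 3.52%). With both PBS 3 and OVA/LPS/Vehicle 12 left out there were 3 and 2 (7.99% and 13.8% of all genes). With GC correction as well there were 0 and 0 (1.58% and 3.15%), with a median of 0.0084. The lower count was 0 with no filter (15.9% of all genes) and with median ratio scaling (17.7%) and 3 with array weights (31.9%). For GGsTop against vehicle (0 higher, 2 lower, with 1.81% of all genes lower), the lower count was 1 with the same total (1.11%). It was 4 with no mean-variance trend (1.76% of all genes) and 4 with only the groups compared (10%). It was 7 with array weights (14.2%) and 0 in each fit with GC correction (0.436% with all libraries). The higher count was 1 with array weights (23.1% of all genes) and with both libraries left out (14.9%). The median was −0.55 with voom, whose scale has no added pseudocount of 1, and −0.15 with GC correction and both libraries left out. For GGsTop against PBS array weights called 1 member higher (Cdk1), where 9.85% of all genes were. Leaving out each library in turn gave 3 to 9 members higher against PBS, where 8.39 to 21.7% of all genes were higher. It gave 0 to 2 lower, where 13.5 to 24.2% were. The 3 came without PBS 1, PBS 3 or OVA/LPS/Vehicle 56 (14.1%, 8.39% and 10.8% of all genes). The 9 came without OVA/LPS/Vehicle 34 (10.9%). For GGsTop against vehicle it gave 0 to 4 lower, the 4 without PBS 3, where 10.3% of all genes were lower. The lower count was 0 without OVA/LPS/Vehicle 56, OVA/LPS/GGsTop 1 or OVA/LPS/GGsTop 3. In these fits 10, 4 and 23 of 14004 genes were called lower in all, against 254 with all libraries.

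For GGsTop against vehicle some log2 fold changes near 0 changed sign. Mcm7 was −0.060 with GC correction, with or without PBS 3, and ranged from −0.011 to 0.19 when libraries were left out. Plk1 was 0.061 at the same FPKM total and 0.19 with both libraries left out, and ranged from −0.23 to 0.25 when libraries were left out. With GC correction and both libraries left out Rrm1 was 0.038, Ccne2 0.033, Bub1 0.018 and Kif11 0.028. Of 645 values of single members under the alternatives, 510 kept sign and call, 105 lost a call, 18 gained one and 12 changed sign. The 510 include values of members not called in the main fit, which had no call to lose. Single calls were lost in 3 of 25 alternatives (Ccne2 and Hmgb2 against PBS) up to 17 of 25 (Mki67 against PBS). With the replicate block for the shared numbers of PBS and GGsTop 1 to 3, 0 members were called and the median was −0.08, so the block changed no call. Members with as few as 15 fragments in a library limit what could be seen.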
